A study of Homo sapiens with 12 samples.

Results

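The target genes of SMAD3 and YAP considered here are *CCN1*, *CCN2*, *ANKRD1*, *THBS1*, *AMOTL2*, *TGFBI*, *TAGLN*, *LTBP2* and *PMEPA1*. They were taken as the rows of the count table whose Ensembl identifiers carry these symbols in GENCODE v44, and all 9 were found among 58302 identifiers. The rule uses no measured value, but the genes were chosen with earlier results of these data known. All 9 passed the filter on low counts, which left 17188 genes.

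RNA was sequenced from MIB1-iKO cells, a derivative of the human lung cancer line NCIH838 in which Dox induces Cas9 and a guide RNA against the ubiquitin ligase gene *MIB1* cuts it. There were 12 libraries in 4 groups of 3 replicates. For 3 days, cells of every group were kept with the BMP receptor inhibitor LDN at 50 nmol/L, with 0.5 μg/mL Dox for MIB1 KO or without Dox for MIB1 WT. Every group then received 10 ng/mL BMP4 for 24 hours, with LDN still present in BMP-off and with DMSO in its place in BMP-on. The BMP-off controls therefore also carried BMP4, and the BMP response below is the effect of removing the inhibitor in its presence. MIB1 WT cells hold the same inducible construct, and since only MIB1 KO libraries received Dox, the loss of MIB1 and other effects of Dox or Cas9 cannot be told apart. The question put to these genes is whether a BMP signal, with or without MIB1, also moves the transcripts of the SMAD3 and YAP pathways.

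BMP ligands act through receptors that phosphorylate SMAD1, SMAD5 and SMAD9, whereas TGF-β and activins act through receptors that phosphorylate SMAD2 and SMAD3. Both branches share SMAD4, and SMAD3 with SMAD4 binds short CAGAC elements. YAP is a coactivator held in the cytoplasm by the Hippo kinases, and in the nucleus it binds DNA through TEAD factors at GGAATG elements. *CCN1*, *CCN2*, *ANKRD1* and *AMOTL2* are among its most used targets, several of which, like *THBS1*, also respond to TGF-β. *TGFBI*, *TAGLN*, *LTBP2* and *PMEPA1* are known chiefly as TGF-β and SMAD3 targets. The libraries measured transcripts only, and neither SMAD3 phosphorylation nor the location of YAP was measured in them.

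Promoter sequences from RefSeq (GRCh38.p14), which run from 250 bases before to 50 after a start site, were matched for 7 of the 9 genes. The promoters of *CCN2*, *ANKRD1* and *THBS1* are shown because they hold the TEAD element GGAATG on the coding strand, while their transcripts answered differently. The 250 bases before the start site are given 5′ to 3′ on the strand of the gene, with GGAATG in capitals. They lie at chr6:131951373-131951622 (minus strand) for *CCN2*, at chr10:90921088-90921337 (minus strand) for *ANKRD1* and at chr15:39580829-39581078 (plus strand) for *THBS1*.
CCN2: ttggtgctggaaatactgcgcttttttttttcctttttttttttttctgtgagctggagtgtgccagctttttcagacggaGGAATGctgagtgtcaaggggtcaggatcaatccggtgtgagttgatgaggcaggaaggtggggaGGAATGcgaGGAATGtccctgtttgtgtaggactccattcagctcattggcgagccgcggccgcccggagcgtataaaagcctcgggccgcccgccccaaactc
ANKRD1: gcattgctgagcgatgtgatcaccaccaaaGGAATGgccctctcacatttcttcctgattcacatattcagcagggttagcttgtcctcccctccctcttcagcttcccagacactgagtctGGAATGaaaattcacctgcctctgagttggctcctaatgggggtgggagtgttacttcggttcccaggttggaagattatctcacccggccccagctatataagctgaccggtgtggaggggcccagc
THBS1: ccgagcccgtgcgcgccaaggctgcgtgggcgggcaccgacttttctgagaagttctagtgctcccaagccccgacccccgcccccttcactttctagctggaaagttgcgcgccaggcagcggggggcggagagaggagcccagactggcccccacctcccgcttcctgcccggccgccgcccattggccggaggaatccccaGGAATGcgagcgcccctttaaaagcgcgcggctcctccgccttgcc
GGAATG was searched on both strands and occurred 3 times in *CCN2*, 2 times in *ANKRD1* and 1 time in *THBS1*. One of the *AMOTL2* promoters held it on the other strand, and those of *TGFBI*, *LTBP2* and *PMEPA1* held no match. Among all 35116 promoters in the table, 14% held GGAATG within their 300 bases. The SMAD element CAGAC was found in 45.3% of all promoters and in those of *CCN2*, *ANKRD1*, *THBS1*, *AMOTL2*, *LTBP2* and *PMEPA1*. A GC-rich SMAD element, GGCGCC, was found in 19.2% of all promoters and in those of *AMOTL2*, *TGFBI*, *LTBP2* and *PMEPA1*. The 7 genes had 11 promoters in all, since *AMOTL2* and *PMEPA1* had more than 1 each. For *AMOTL2* and *PMEPA1*, a match in any promoter was counted, and not every promoter of theirs held CAGAC or GGCGCC. The shares over all promoters count each promoter on its own. None of the promoters matched for the 7 genes held the CArG box bound by SRF, which 1.29% of all promoters held. No promoter was matched for *CCN1* and *TAGLN*, so theirs were not searched for any element. A match is only a run of letters, and binding was not measured.

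Total counts per library ranged from 19124010 to 29498000. *MIB1* transcripts fell from between 144 and 176 CPM (counts brought to a common library total with TMM scaling) in the MIB1 WT libraries to between 31 and 34.4 in the MIB1 KO libraries. The epithelial origin of the line was checked against marker genes. *KRT8* (92.7 to 192 CPM) and *KRT18* (139 to 166 CPM) were present, *EPCAM* and *CDH1* were low, with at most 9.83 CPM, and *KRT19* did not exceed 0.104 CPM. The immune marker *PTPRC* was at 0 in all 12 libraries, and the fibroblast markers *COL1A2* and *DCN* did not exceed 0.227 CPM. BMP signaling itself was visible in its direct targets, such as the feedback inhibitors *SMAD6*, *SMAD7* and *BAMBI*. All 9 tested of 10 listed BMP targets rose with BMP-on, by a median log2 fold change of 1.29 in MIB1 WT and 1.42 in MIB1 KO cells.

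Per length, the genes spanned a wide range of levels. Over the 12 libraries, *CCN1* averaged 377 RPKM (a deposited value that also divides by gene length) and *TGFBI* 321 RPKM. *CCN2* followed with 47.9 RPKM, *AMOTL2* with 34.7 RPKM and *PMEPA1* with 34.4 RPKM. Then came *ANKRD1* with 8.85 RPKM, *THBS1* with 7.52 RPKM, *LTBP2* with 3.69 RPKM and *TAGLN* with 3.52 RPKM. Over all libraries, the ranges of neighbors in this order overlapped, except between *TGFBI* and *CCN2*, between *CCN2* and *AMOTL2* and between *PMEPA1* and *ANKRD1*, but within a group some did not. *CCN1* lay above *TGFBI* in 3 of the 4 groups, and their ranges overlapped in KO BMP-on only. *ANKRD1* lay below *THBS1* in both BMP-off groups (4.47 to 5.66 RPKM against 8.81 to 10.5 RPKM in WT) and above it in both BMP-on groups (13.4 to 14.6 RPKM against 4.42 to 5.20 RPKM in KO). *AMOTL2* lay above *PMEPA1* in both BMP-off groups and below it in KO BMP-on. *LTBP2* and *TAGLN* overlapped in WT BMP-off and in KO BMP-on. *TAGLN*, which encodes an actin-binding marker of smooth muscle and overlaps *PCSK7* on the other strand, rested on 168 to 237 counts per library.

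**Figure D1:**
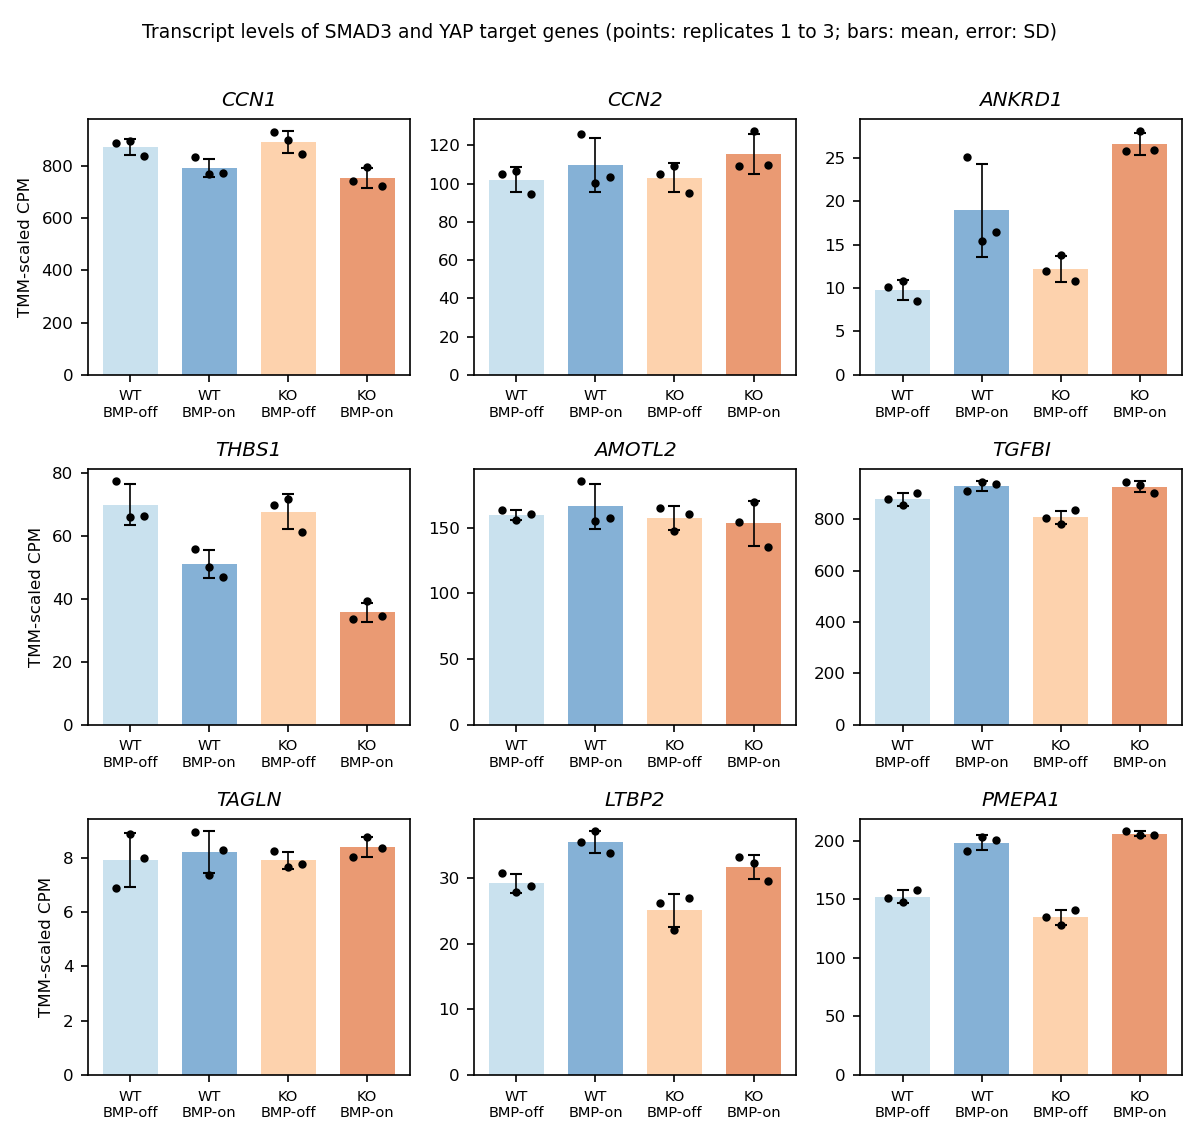
TMM-scaled CPM of each gene by group, with points for replicates 1 to 3 in order, bars for the mean and error bars for the SD (n = 3). *ANKRD1* and *PMEPA1* sit higher and *THBS1* sits lower in the BMP-on groups of both genotypes, while *CCN2*, *AMOTL2* and *TAGLN* overlap between the BMP states of each genotype.

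In MIB1 WT cells, the BMP signal raised *ANKRD1* 1.93-fold and *PMEPA1* 1.30-fold and lowered *THBS1* to 72.9% of its BMP-off level. These were 3 of the 9 genes at an adjusted p of at most 0.05, against 3.92% of all genes tested. In MIB1 KO cells, 6 of the 9 passed, against 22% of all genes tested. *ANKRD1*, *PMEPA1*, *LTBP2* and *TGFBI* rose, and *THBS1* and *CCN1* fell. The response was split among the YAP targets, as *ANKRD1* and *CCN1* moved in opposite directions and *CCN2* and *AMOTL2* did not pass the test. All p-values below are from edgeR with Benjamini-Hochberg adjustment over all 17188 genes, and they measure the spread between libraries, which the labels do not tie to separate cultures. The comparisons share libraries and are not independent of each other. In bulk RNA, fewer cells that express a gene and less RNA per cell cannot be told apart.

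Positions below are of whole genes in GRCh38 (GENCODE v44). *ANKRD1* (ENSG00000148677, chr10:90912096-90921087, minus strand) encodes an ankyrin repeat protein of muscle and of cells under mechanical load and is one of the most sensitive YAP targets. In MIB1 WT cells, its level was 10.1, 10.8 and 8.46 CPM in the BMP-off replicates and 25.1, 15.4 and 16.4 CPM with BMP-on. In MIB1 KO cells, it was 12, 13.8 and 10.8 CPM with BMP-off and 25.8, 28.1 and 25.9 CPM with BMP-on. BMP-on libraries were above BMP-off libraries in both genotypes without overlap, and the first WT BMP-on replicate stood well above the other two. The log2 fold change was 0.95 ± 0.17 (SE, adjusted p = 0.00738) in WT and 1.12 ± 0.17 (SE, adjusted p = 0.000434) in KO cells. With a library left out, it ranged from 0.70 to 1.08 in WT and from 1.03 to 1.21 in KO cells. In KO cells, *ANKRD1* was the only 1 of the 9 genes to pass both the test and the study's further threshold of 1 in absolute log2 fold change, as 1.66% of all genes did.

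*PMEPA1* (ENSG00000124225, chr20:57648392-57711536, minus strand) encodes a membrane protein that binds SMAD2 and SMAD3 and dampens TGF-β signaling, and its gene, which overlaps *NKILA* on the other strand, is induced by that pathway. With BMP-off, it measured 151, 147 and 158 CPM in WT and 135, 128 and 141 CPM in KO libraries. With BMP-on, it measured 191, 203 and 200 CPM in WT and 208, 205 and 205 CPM in KO libraries. The groups did not overlap between BMP states in either genotype. The log2 fold change was 0.38 ± 0.05 (SE, adjusted p = 0.000109) in WT and 0.61 ± 0.05 (SE, adjusted p = 1.8e-07) in KO cells.

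*THBS1* (ENSG00000137801, chr15:39581079-39599466, plus strand) encodes thrombospondin-1, a matrix glycoprotein that can release TGF-β from its latent complex and is a target of both pathways. Its level was 77.3, 66.0 and 66.1 CPM in WT BMP-off and 55.9, 50.0 and 46.9 CPM in WT BMP-on libraries. It was 69.6, 71.7 and 61.2 CPM in KO BMP-off and 33.5, 39.2 and 34.5 CPM in KO BMP-on libraries. Every BMP-on library was below every BMP-off library, and the KO BMP-on libraries lay below all others. The log2 fold change was -0.46 ± 0.09 (SE, adjusted p = 0.00529) in WT and -0.92 ± 0.09 (SE, adjusted p = 2.62e-06) in KO cells, where the transcript kept 52.8% of its BMP-off level. The gene overlaps *FSIP1* and *THBS1-AS1* on the other strand and *THBS1-IT1* on its own, and it is not stated whether the counting used the strand.

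*CCN1* (ENSG00000142871, chr1:85580761-85584589, plus strand) encodes a matricellular protein of the same family as *CCN2* and had the highest mean per length. It measured 888, 894 and 839 CPM in WT BMP-off and 833, 769 and 773 CPM in WT BMP-on libraries. It measured 929, 901 and 847 CPM in KO BMP-off and 744, 795 and 721 CPM in KO BMP-on libraries. Levels were lower with BMP-on in both genotypes, without overlap. The log2 fold change was -0.24 ± 0.05 (SE, adjusted p = 0.00215) in KO cells. In WT cells it was -0.14 ± 0.05 (SE), with an adjusted p of 0.142.

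*LTBP2* (ENSG00000119681, chr14:74498183-74612378, minus strand) encodes a protein of elastic fibers that belongs by name to the latent TGF-β binding protein family. It measured 30.8, 28.0 and 28.9 CPM in WT BMP-off and 35.5, 37.2 and 33.8 CPM in WT BMP-on libraries. It measured 26.2, 22.1 and 26.9 CPM in KO BMP-off and 33.2, 32.3 and 29.6 CPM in KO BMP-on libraries. The BMP states did not overlap in either genotype. The log2 fold change was 0.34 ± 0.08 (SE, adjusted p = 0.00567) in KO and 0.28 ± 0.08 (SE, adjusted p = 0.0522) in WT cells. The WT value lay just outside the threshold and passed it under DESeq2, under limma and in 3 of 12 fits with a library removed.

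*TGFBI* (ENSG00000120708, chr5:136028988-136063818, plus strand) encodes a matrix protein named for its induction by TGF-β. It measured 877, 853 and 904 CPM in WT BMP-off and 908, 943 and 938 CPM in WT BMP-on libraries. It measured 805, 782 and 835 CPM in KO BMP-off and 943, 935 and 903 CPM in KO BMP-on libraries. The BMP states did not overlap within a genotype, although the WT groups came close. The log2 fold change was 0.20 ± 0.04 (SE, adjusted p = 0.00183) in KO cells and 0.08 ± 0.04 (SE, adjusted p = 0.333) in WT cells.

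Groups of WT libraries that did not overlap were thus found for 4 genes with higher and 2 genes with lower levels in BMP-on, against 11.2% and 12.7% of all genes tested. In KO cells, they were again 4 and 2 genes, against 17.9% and 17.8%.

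The other three genes did not pass the test in any comparison. *CCN2* (ENSG00000118523, chr6:131948176-131951372, minus strand) encodes connective tissue growth factor, a shared target of YAP and SMAD3 that overlaps *LINC01013* on the other strand. It ranged from 94.5 to 107 CPM in WT BMP-off, from 100 to 126 CPM in WT BMP-on, from 94.9 to 109 CPM in KO BMP-off and from 109 to 128 CPM in KO BMP-on. Its log2 fold change with BMP-on had 95% confidence intervals of -0.09 to 0.30 in WT and -0.03 to 0.36 in KO cells. *AMOTL2* (ENSG00000114019, chr3:134355347-134375479, minus strand), an angiomotin family member that retains YAP in the cytoplasm and is itself a YAP target, ranged from 135 to 185 CPM over all libraries. Its intervals were -0.12 to 0.23 in WT and -0.22 to 0.13 in KO cells. *TAGLN* (ENSG00000149591, chr11:117199370-117207464, plus strand) ranged from 6.90 to 8.94 CPM, with intervals of -0.17 to 0.28 and -0.15 to 0.31. None of these intervals reached a log2 fold change of 1 in either direction.

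**Figure D2:**
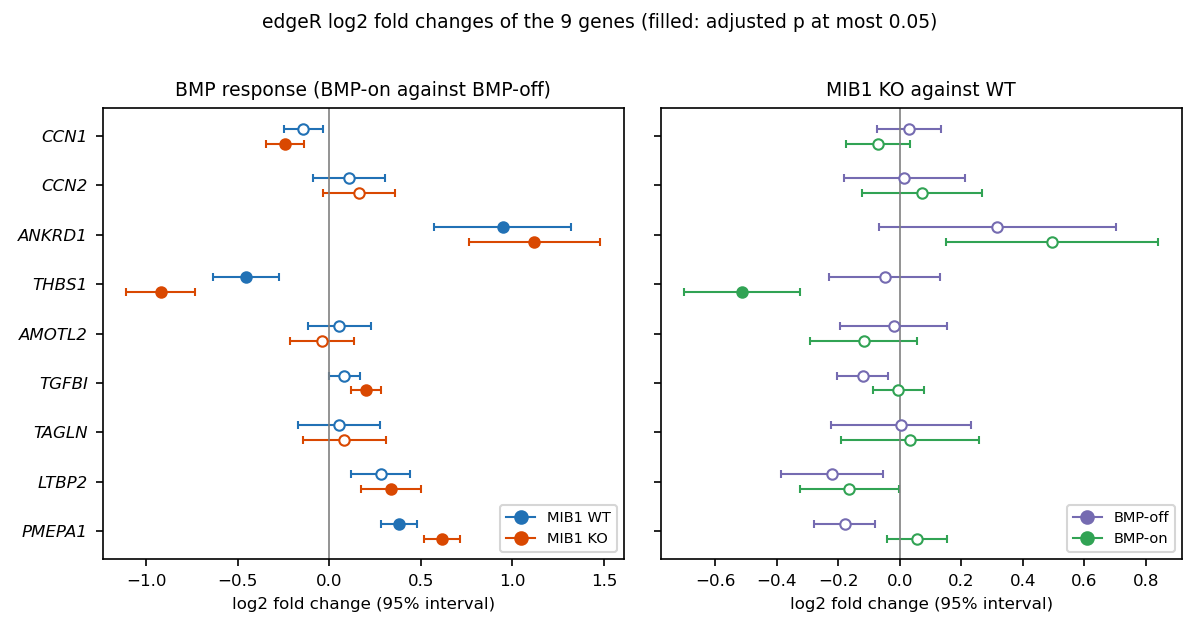
Log2 fold changes of the 9 genes from edgeR with 95% confidence intervals, for the BMP response in each genotype (left) and for MIB1 KO against WT in each BMP state (right). Filled points passed an adjusted p of 0.05, and in the right panel this is *THBS1* with BMP-on alone.

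With BMP-on, *THBS1* was lower in KO cells, at 35.8 ± 3.05 CPM against 51 ± 4.52 CPM (SD, n = 3). Its log2 fold change was -0.51 ± 0.09 (SE, adjusted p = 0.00316). It was the only 1 of the 9 genes to pass, against 3.67% of all genes tested. *ANKRD1* was higher in every KO BMP-on library than in every WT BMP-on library, at 26.6 ± 1.30 CPM against 19 ± 5.35 CPM (SD, n = 3), with a log2 fold change of 0.49 ± 0.16 (SE) and an adjusted p of 0.143. Without WT BMP-on replicate 1, the difference was 0.74 with an adjusted p of 0.00245. Over all fits with a library left out, the *ANKRD1* difference ranged from 0.36 to 0.74 and its adjusted p from 0.00245 to 0.422. Groups with no overlap were found for *ANKRD1* and *PMEPA1* with higher and for *THBS1* and *LTBP2* with lower levels in KO cells, against 11.4% and 12.2% of all genes tested.

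With BMP-off, 0 of the 9 genes passed in edgeR, and neither DESeq2 nor limma gave a call. Only 0.0407% of all genes passed in this comparison. At an unadjusted p under 0.05 there were 3 genes, *TGFBI*, *LTBP2* and *PMEPA1*. Each of them was lower in every KO than in every WT library, as were 5.96% of all genes tested. Their log2 fold changes were -0.12 ± 0.04, -0.22 ± 0.08 and -0.18 ± 0.05 (SE), with adjusted p-values of 0.366, 0.392 and 0.292. *THBS1*, the gene that differed with BMP-on, had a log2 fold change of -0.05 ± 0.08 (SE, adjusted p = 0.849) with BMP-off.

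Whether the BMP response itself depended on MIB1 was tested with the interaction, the response in KO minus that in WT cells. Of the 9 genes, 0 passed in edgeR, against 0.0931% of all genes tested, and limma gave 0 calls. At an unadjusted p under 0.05 there were 2 genes. *THBS1* had an interaction of -0.46 ± 0.12 (SE, adjusted p = 0.166) and *PMEPA1* one of 0.23 ± 0.07 (SE, adjusted p = 0.196). For *THBS1*, the call depended on the fit, since DESeq2 gave an adjusted p of 0.0479, and leaving out WT BMP-off replicate 1 or KO BMP-off replicate 3 gave 0.0334 and 0.0379. In these fits more of all genes passed too, 1.38% under DESeq2 and 1.35% and 1.26% without the named libraries. Over all fits with a library left out, the adjusted p of the *THBS1* interaction ranged from 0.0334 to 0.47. The passes of *CCN1*, *TGFBI* and *LTBP2* in KO cells alone do not show a larger response there, as their interactions had adjusted p-values of 0.589, 0.472 and 0.859.

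Lists of further genes of each pathway were set beside these genes. They were compiled from general knowledge with earlier results of these data known, and they were described by counts and medians of log2 fold changes. Over all genes tested, the median was 0.00 in WT and 0.01 in KO cells.

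Of 18 other SMAD3 targets, 16 were tested. With BMP-on, 7 rose and 0 fell in WT cells, with a median of 0.29, and 10 rose and 0 fell in KO cells, with a median of 0.35. Among all genes, 1.91% rose in WT and 11.1% in KO cells. At an unadjusted p under 0.05, 0 SMAD3 targets were lower in WT and 1 in KO cells, and DESeq2 and limma gave no lower call. The largest rises in WT cells were those of *SNAI2* (1.36 ± 0.39, SE, adjusted p = 0.0483) and *SNAI1* (0.62 ± 0.13, SE, adjusted p = 0.0129), which encode repressors of epithelial genes, *SNAI2* with at most 34 counts in a library, and of *SMAD7* (1.11 ± 0.09, SE, adjusted p = 4.32e-06), an inhibitor of both SMAD branches that is also counted among the BMP targets. In KO cells, they were those of *COL1A1* (1.39 ± 0.20, SE, adjusted p = 0.000602), *SMAD7* (1.35 ± 0.09, SE, adjusted p = 1.37e-07) and *SNAI1* (1.07 ± 0.13, SE, adjusted p = 4.07e-05). *COL1A1*, a fibrillar collagen chain, is also listed as a fibroblast marker, and the summed level of the 5 fibroblast markers moved with it, from 12.1 to 21.5 CPM in the BMP-off and from 29.1 to 42.8 CPM in the BMP-on libraries. Of these 5, *COL1A2*, *DCN*, *LUM* and *PDGFRA* did not exceed 1.62 CPM.

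Of 18 other YAP targets, 17 were tested. With BMP-on, 0 rose and 3 fell in WT cells, with a median of 0.01, and 0 rose and 7 fell in KO cells, with a median of -0.20. Among all genes, 2.01% fell in WT and 10.9% in KO cells. At an unadjusted p under 0.05, 1 was higher in WT and 0 in KO cells, and DESeq2 and limma gave no higher call. *TGFB2*, which encodes a ligand of the SMAD3 branch, fell by 0.96 on the log2 scale in WT (SE 0.12, adjusted p = 8.6e-05) and by 0.88 in KO cells (SE 0.13, adjusted p = 0.000148). *NUAK2*, a stress kinase gene, fell by 0.59 (SE 0.09, adjusted p = 0.00109) and by 0.67 (SE 0.10, adjusted p = 0.000104). *AXL*, a receptor tyrosine kinase gene, fell by 0.26 (SE 0.05, adjusted p = 0.0079) and by 0.48 (SE 0.05, adjusted p = 8.02e-06). In KO cells, *THBS1* and *CCN1* thus fell together with *TGFB2*, *NUAK2* and *AXL*, while *ANKRD1* rose.

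**Figure D3:**
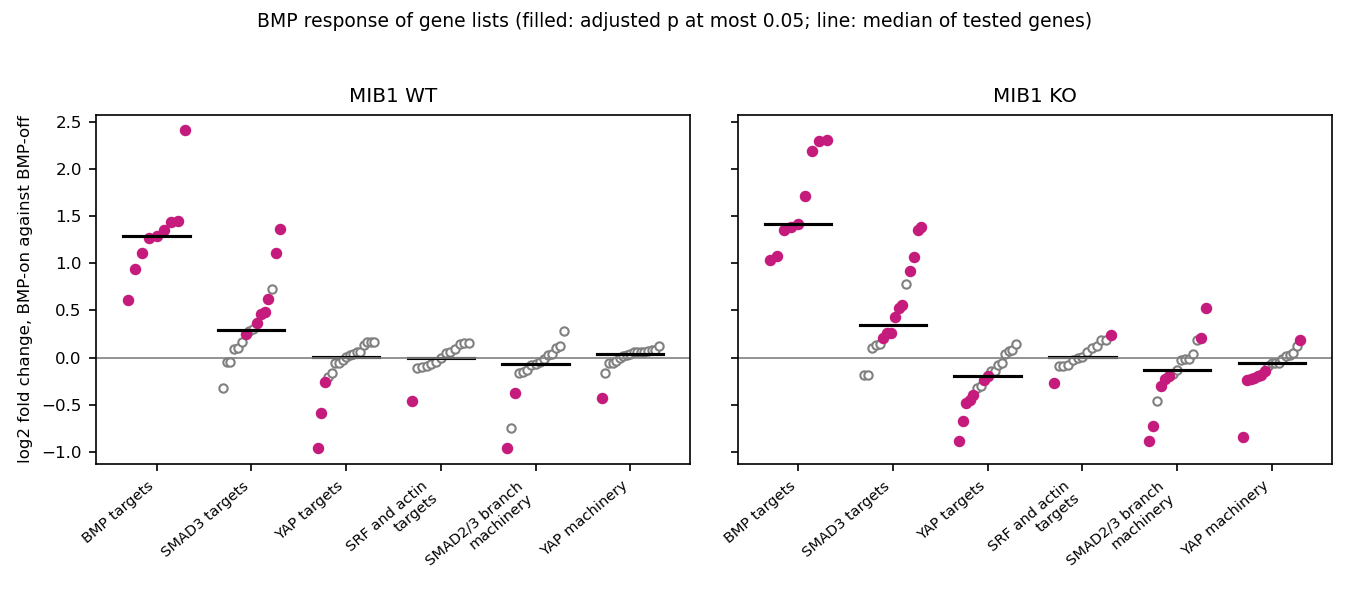
Log2 fold changes of BMP-on against BMP-off for the tested genes of 6 lists in MIB1 WT and KO cells, with filled points for genes that passed the test and a line at the median of each list. The SMAD3 targets have medians of 0.29 and 0.35 and the YAP targets of 0.01 and -0.20, against 1.29 and 1.42 for the BMP targets.

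For MIB1 KO against WT with BMP-on, *SMAD7* was the only 1 of the other SMAD3 targets to pass (0.48 ± 0.09, SE, adjusted p = 0.00541) and *TGFB2* the only 1 of the other YAP targets (-0.57 ± 0.14, SE, adjusted p = 0.0237). With BMP-off, the values were 0.24 ± 0.10 (SE, adjusted p = 0.434) for *SMAD7* and -0.65 ± 0.11 (SE, adjusted p = 0.0501) for *TGFB2*. The lower level of *TGFB2* in KO cells was thus not particular to BMP-on, and its interaction was 0.08 ± 0.18 (SE, adjusted p = 0.89). The counts with BMP-on moved with the fit, to 3 higher SMAD3 targets under both DESeq2 and limma, and to 4 higher and 1 lower after GC correction. For the YAP targets, 0 were lower under DESeq2, 1 was lower under limma, and 5 were lower and 1 was higher after GC correction. Among all genes, the share called in either direction was 3.67% and, after GC correction, 7.42%. Both lists had 0 calls in the interaction by edgeR, DESeq2 and limma, with 4 SMAD3 targets, all higher, and 5 YAP targets, all lower, at an unadjusted p under 0.05. After GC correction, 1 SMAD3 target was higher and 1 YAP target lower in the interaction, against 1.51% of all genes.

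The SMAD3 branch itself was followed in 15 listed ligands, receptors and SMADs. With BMP-on, 0 rose and 2 fell in WT cells, against 1.91% and 2.01% of all genes. In KO cells, 2 rose, 5 fell and 8 did not pass, against 11.1% higher and 10.9% lower among all genes. In WT cells, 0 were higher at an unadjusted p under 0.05 or by DESeq2 and limma. *TGFBR3*, which encodes the coreceptor betaglycan, fell by 0.38 on the log2 scale in WT (SE 0.05, adjusted p = 0.000106) and by 0.73 in KO cells (SE 0.05, adjusted p = 2.79e-08). *TGFB2*, counted here too, was the other gene that fell in WT cells. *SMAD3* itself fell by 0.30 in KO cells (SE 0.05, adjusted p = 0.000428). The ligand genes *TGFB1* (0.52 ± 0.13, SE, adjusted p = 0.0194) and *GDF11* (0.20 ± 0.06, SE, adjusted p = 0.0295) rose in KO cells. Under limma, 1 gene was higher and 5 were lower there. *TGFB1* is also one of the other SMAD3 targets that rose in KO cells. In the comparison of genotypes with BMP-on, *TGFBR3*, *TGFB2* and *SMAD2* were lower in KO cells, with log2 fold changes of -0.39 ± 0.05, -0.57 ± 0.14 and -0.21 ± 0.06 (SE) and adjusted p-values of 0.000185, 0.0237 and 0.0477. Of these 3 calls, 2 were left under DESeq2 and under limma. With BMP-off, *TGFB2* was lower in KO cells too, by 0.65 (SE 0.11, adjusted p = 0.0501).

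Of 17 genes of the Hippo kinases, YAP, TAZ, their inhibitors and the TEAD factors, 1 fell with BMP-on in WT cells, against 2.01% of all genes, and 1 rose and 7 fell in KO cells, against 11.1% and 10.9%. *AMOT*, which encodes a paralog of *AMOTL2* that also retains YAP, fell by 0.43 in WT (SE 0.08, adjusted p = 0.00606) and by 0.84 in KO cells (SE 0.09, adjusted p = 3.89e-06), and with BMP-on its level was lower after MIB1 loss (-0.55 ± 0.09, SE, adjusted p = 0.00165). In KO cells, the kinase gene *LATS2* fell by 0.24 (SE 0.06, adjusted p = 0.011) and the DNA-binding partner gene *TEAD1* by 0.23 (SE 0.06, adjusted p = 0.0139). *VGLL4*, which encodes a competitor of YAP for TEAD, rose by 0.19 (SE 0.06, adjusted p = 0.0274), a call lost under limma, which gave 0 higher and 5 lower genes in KO cells. *LATS2* is also one of the other YAP targets that fell. 

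*TAGLN*, *CCN1*, *CCN2* and *ANKRD1* are also read as targets of SRF, the factor that follows actin assembly. Of 15 further SRF and actin genes, 13 were tested. *CNN1*, a smooth muscle calponin gene, fell in WT cells by 0.46 (SE 0.11, adjusted p = 0.0259). The tropomyosin gene *TPM2* rose by 0.24 (SE 0.06, adjusted p = 0.0146) and *TPM4* fell by 0.27 (SE 0.04, adjusted p = 0.000283) in KO cells. No other gene of the list passed in either BMP response by edgeR, and the medians were 0.00 in WT and 0.01 in KO cells, against 0.00 and 0.01 over all genes tested. After GC correction, 1 gene of the list was higher and 2 lower in WT cells, against 8.83% of all genes called in either direction. In KO cells, 1 was then higher and 4 lower, against 24.7%, and the median was -0.11.

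In some libraries, *CCN1*, *CCN2*, *ANKRD1* and *AMOTL2* deviated together from the other replicates of the group. They were all 4 at their highest of the group in WT BMP-on replicate 1 and again in KO BMP-on replicate 2, and all 4 at their lowest in WT BMP-on replicate 2. In WT BMP-on replicate 1, their log2 CPM exceeded the mean of the group by 0.07 for *CCN1*, 0.20 for *CCN2*, 0.43 for *ANKRD1* and 0.16 for *AMOTL2*. In KO BMP-on replicate 2, the excess was 0.08 for *CCN1*, 0.15 for *CCN2*, 0.08 for *ANKRD1* and 0.15 for *AMOTL2*. This was not particular to these genes. *THBS1* (excess 0.135 in each) and *TAGLN* (0.12 and 0.06) were also at their highest in both libraries, and *TGFBI*, *LTBP2* and *PMEPA1* in neither. In WT BMP-on replicate 2, *TAGLN* was also at its lowest (-0.14), but *THBS1* was not. Among the 17 other YAP targets tested, 14 were at their highest in KO BMP-on replicate 2, where 32.2% of all genes tested were. In WT BMP-on replicate 1, this was 7 of the 17, and 35.3% of all genes. In WT BMP-on replicate 2, where the 4 genes were lowest, 6 of the 17 were lowest and 7 highest. In WT BMP-off replicate 1, 12 of the 17 but only 1 of the 4 genes were highest. KO BMP-on replicate 2 was the shallowest library, with 19124010 counts, and the part of depth in this was not tested. The same 4 genes were highest in both libraries after correction for GC content.

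**Figure D4:**
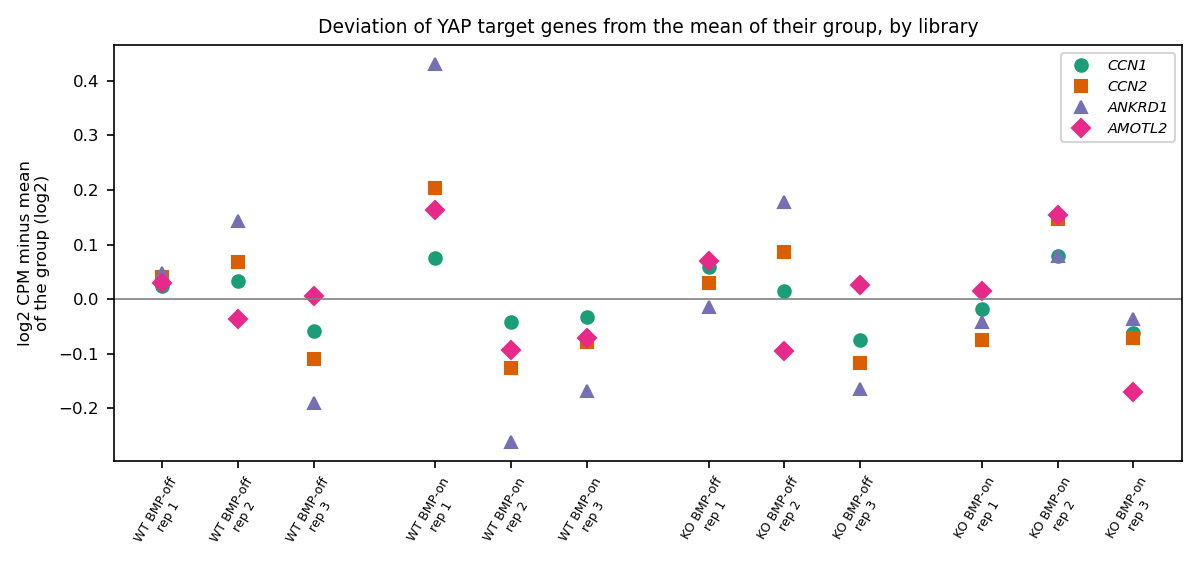
Difference of log2 CPM from the mean of the group for *CCN1*, *CCN2*, *ANKRD1* and *AMOTL2* in each of the 12 libraries. All 4 genes lie above 0 in WT BMP-on replicate 1 and in KO BMP-on replicate 2, with the largest deviation for *ANKRD1* in the former.

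The genes whose pattern over the 12 libraries was most like that of each of the 6 called genes were found by the root mean square difference of centered log2 CPM. For *THBS1*, they were *LINC00707* (0.07) and *PLK2* (0.08), against a root mean square variation of 0.40 in *THBS1* itself. For *ANKRD1*, they were *LINC02551* (0.14) and *LOX* (0.15), against 0.57. For *PMEPA1*, they were *ANKH* (0.07) and *ZNF503* (0.08), against 0.26. *LTBP2* was nearest to *KCTD15* and *TIMP1* (0.08 each, against 0.20). *CCN1* was nearest to *RAD1* and *TUFT1* (0.04 each, against 0.11) and *TGFBI* to *GNAS* and *GPN2* (0.03 each, against 0.09). Among the 9 genes themselves, the nearest to *THBS1* was *CCN1*, and the nearest to *ANKRD1* was *PMEPA1*.

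The libraries differed in how counts followed GC content, with rank correlations between deviation from the group and GC content from -0.629 in KO BMP-off replicate 2 to 0.611 in KO BMP-off replicate 3. After a correction for this, 5 of the 9 genes passed in the WT BMP response, *CCN1* and *LTBP2* being added, while 8.83% of all genes did.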

How the data were processed

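RNA from 12 libraries of MIB1-iKO NCIH838 cells was analysed, with 3 replicates in each of 4 groups taken from the sample labels. The members and gene lists were chosen with earlier results of these data known. Named genes are the 9 members, MIB1, in each list and comparison up to 3 genes with the largest log2 fold change in each direction among those called, and for each member called the 2 genes with a mean of at least 50 counts and the most similar pattern.

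After removal of ribosomal reads, the authors used GSNAP for alignment to GRCh38 and HTSeqGenie for counting over the exons of RefSeq genes. The deposited counts are whole numbers without normalization. The deposited RPKM values were normalized by the authors and served for levels per length and 2 alternatives. The sources name a stranded and an unstranded kit without saying which was used. Symbols and positions came from GENCODE v44.

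Counts (19124010 to 29498000 per library) were scaled by TMM and filtered with edgeR 4.0.16 in R 4.3.3, which left 17188 genes. A robust quasi-likelihood model of the 4 groups was fitted to all libraries, with 8 residual degrees of freedom, and 5 comparisons were tested with Benjamini-Hochberg adjustment over all genes. Calls were made where the adjusted p did not exceed 0.05, and the study's further threshold of an absolute log2 fold change of 1 is given separately. The study itself used limma-voom with quantile normalization, which was an alternative here with limma 3.58.1. Other alternatives were DESeq2 1.42.0, log2(RPKM + 1) and log2(RPKM + 0.1) values, scaling by library size, no filter on low counts, at least 10 counts in every library, a replicate term, a GC correction (loess with a span of 0.4 on transcript GC content, as an offset), both together, only the groups compared and each library left out in turn. The counts of list genes under these alternatives were added after the data were seen.

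On simulated data with 17003 genes, 100 genes were changed by an absolute log2 value of 0.5 and 100 by 1, in KO BMP-on libraries only. The procedure recovered 56% and 81% of them in the KO BMP response and 41% and 74% in the interaction. It also called 12 unchanged genes in the former and 9 in the latter. Far fewer genes were changed than the 22% called in the real KO response, so these shares need not hold there. Intervals cover the spread between libraries only.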

Additional observations from a re-analysis of the deposited data

How the results depend on the processing

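In the KO BMP response, 6 of the 9 genes passed under all alternatives and with any library left out, and with BMP-off 0 did. The share of all genes called in the KO response ranged over these fits from 12.4% to 30.4%. In the WT response, 3 to 5 passed over the alternatives other than leaving out a library, with 5 under the GC correction with or without the replicate block (against 8.83% and 8.15% of all genes), and 3 to 4 when a library was left out. With a library left out, 2.09% to 6.39% of all genes were called in the WT response. For KO against WT with BMP-on, 2 passed under DESeq2, without a filter on low counts and under the GC correction, 3 under the GC correction with replicate block, and 1 to 2 when a library was left out. The shares of all genes called were 4.3% under DESeq2, 2.48% without a filter, 7.42% under the GC correction and 6.62% with the block added. They ranged from 1.86% to 4.93% when a library was left out. In the interaction, 1 passed, THBS1, under DESeq2, without a filter (adjusted p = 0.000411), under the GC correction (0.0464) and under the GC correction with replicate block (0.0124), and 0 to 1 when a library was left out. Among all genes, these fits called 1.38%, 0.919%, 1.51% and 1.2%, in the same order, and between 0.0228% and 1.35% with a library left out. ANKRD1 passed for KO against WT with BMP-on under DESeq2 (adjusted p = 0.0347), without a filter (1.94e-05) and under the GC correction with replicate block (0.0433), with adjusted p-values over all these alternatives from 1.94e-05 to 0.245. When a library was left out, its adjusted p-values in this comparison ranged from 0.00245 to 0.422. LTBP2 passed there under the GC correction (0.0495), also with the replicate block (0.0415). Of the other SMAD3 targets, 11 rose in WT cells under the GC correction, and 5 to 8 when a library was left out, while under that correction 1 fell in each genotype. The cause of these shifts was not tested. No call of the 9 genes was lost under any alternative.

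Directions turned only for values that did not pass. Under the GC correction, the log2 fold change of AMOTL2 for KO against WT with BMP-off became 0.0569, also with the replicate block. That of TGFBI for KO against WT with BMP-on became 0.00333 under limma-voom and 0.0186 with library size scaling. That of TAGLN in the KO response became -0.0155 under limma-voom, -0.0429 under the GC correction and -0.0418 with the block added. Its interaction became -0.0492, -0.0694 and -0.0689, and that of LTBP2 became -0.0592 and -0.0625 under the GC corrections. When a library was left out, values that changed sign ranged for CCN2 from -0.00434 to 0.17 (WT response), -0.00702 to 0.18 (KO against WT, BMP-on), -0.0355 to 0.0804 (BMP-off) and -0.019 to 0.16 (interaction). For AMOTL2 they ranged from -0.0316 to 0.10 (WT response), -0.12 to 0.0321 (KO response) and -0.0507 to 0.0258 (BMP-off). For TAGLN they ranged from -0.038 to 0.14 (WT response), -0.0413 to 0.0934 (BMP-on), -0.0815 to 0.091 (BMP-off) and -0.0627 to 0.11 (interaction). For THBS1 they ranged from -0.0943 to 0.0438 (BMP-off), for TGFBI from -0.0232 to 0.0117 (BMP-on) and for LTBP2 from -0.0265 to 0.10 (interaction).

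Deviations from the group mean correlated above 0.1 in 2 of 18 pairs of like-numbered libraries, with correlations from -0.272 to 0.3. With 3 libraries per group and deviations that also followed GC content, this cannot decide whether replicate numbers pair the libraries. The replicate block alone left the number of calls among the 9 genes at 3, 6, 1, 0 and 0. With it, 0 SRF and actin genes instead of 1 (CNN1) were lower in the WT response, 5 instead of 7 genes of the YAP machinery were lower in the KO response, and between genotypes with BMP-on 1 instead of 3 genes of the SMAD3 branch and 0 instead of 1 of the other YAP targets (TGFB2) were lower in KO cells.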
